A study of Mus musculus with 6 samples.

Results

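Cytosolic DNA and RNA sensors are the proteins with which a cell recognises nucleic acid in its own cytoplasm. The genes described are 10 of the 16894 genes listed in the deposited table. They were taken by symbol, with earlier results of these data known. The sensors were Mb21d1 (encoding cGAS, also named Cgas), Ddx58 (RIG-I), Ifih1 (MDA5), Dhx58 (LGP2) and Zbp1. The adaptors were Tmem173 (STING, also named Sting1) and Mavs, and the kinase Tbk1, the transcription factor Irf3 and the nuclease Trex1 completed the set. All 10 genes were measured by bulk RNA-seq in fibroadipogenic progenitors (FAPs), mesenchymal cells of skeletal muscle that can form fibroblasts and adipocytes. The FAPs had been sorted magnetically as CD45-, CD31-, α7-integrin- and SCA-1+ cells from leg muscles of 3- to 6-month-old male and female C57BL/6 mice and grown in medium with serum and basic fibroblast growth factor at low oxygen. The 3 senescent libraries came from FAPs given 20 μM of etoposide, a topoisomerase poison that breaks DNA, for 48 h and normal medium for 5 days more, and the 3 control libraries from FAPs that were not made senescent. The labels do not tie a library to an animal or say whether replicates were separate cultures, so the p-values below measure the spread between these libraries, which may be technical, and etoposide in culture was the only inducer of senescence in these libraries.

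As background, double-stranded DNA in the cytoplasm activates cGAS, which makes a cyclic dinucleotide that binds STING on the endoplasmic reticulum. Viral or misplaced double-stranded RNA is recognised by the helicases RIG-I and MDA5, which signal through MAVS on the mitochondrial surface, while LGP2 modulates both. Either branch recruits the kinase TBK1, which phosphorylates IRF3 to switch on interferon genes, and several of the sensor genes are themselves induced by interferon. ZBP1 binds nucleic acid in the Z conformation and can start cell death, and the exonuclease TREX1 degrades cytosolic DNA before cGAS meets it.

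The promoters of the sensors that changed are printed here because interferon regulatory factors bind pairs of GAAA repeats, and the spacing and place of the repeats can be read in the letters. RefSeq promoters (build GRCm38.p6, from 250 bases before to 50 bases after the start site) were matched for 7 of the 10 genes, with 2 promoters for Trex1. Zbp1, Dhx58 and Tmem173 had no entry. The motif GAAA, a gap of 2 bases and GAAA again, searched on both strands, was found in 2 genes, Ddx58 and Ifih1, in each case just after the start site. Capitals mark the repeats with their gap in the windows around the motif, and in Ddx58 they read as TTTC because the pair lies on the opposite strand. The upstream sequences are the 250 bases directly before the start site, and all sequences run 5′ to 3′ on the minus strand, the strand of each gene.
Ddx58 motif, chr4:40239796-40239825, bases 1 to 30 after the start: agTTTCGATTTCctatggccagccggctag
Ifih1 motif, chr2:62646206-62646235, bases 21 to 50 after the start: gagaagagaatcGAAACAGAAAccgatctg
Ddx58 upstream, chr4:40239826-40240075: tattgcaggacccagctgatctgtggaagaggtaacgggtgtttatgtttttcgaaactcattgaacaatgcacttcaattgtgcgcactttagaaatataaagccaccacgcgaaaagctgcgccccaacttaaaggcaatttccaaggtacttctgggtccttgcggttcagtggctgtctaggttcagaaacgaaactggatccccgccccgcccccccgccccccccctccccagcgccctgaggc
Ifih1 upstream, chr2:62646256-62646505: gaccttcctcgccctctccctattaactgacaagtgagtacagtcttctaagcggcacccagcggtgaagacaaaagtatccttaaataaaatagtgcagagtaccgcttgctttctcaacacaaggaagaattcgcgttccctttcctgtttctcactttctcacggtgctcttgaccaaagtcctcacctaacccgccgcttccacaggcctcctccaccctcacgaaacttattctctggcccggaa
Mb21d1 upstream, chr9:78443238-78443487: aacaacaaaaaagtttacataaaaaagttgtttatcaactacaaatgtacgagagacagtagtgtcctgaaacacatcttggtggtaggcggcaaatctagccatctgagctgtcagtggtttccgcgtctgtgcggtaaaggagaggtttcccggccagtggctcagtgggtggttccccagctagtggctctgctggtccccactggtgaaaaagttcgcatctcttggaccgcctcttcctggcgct

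The Mb21d1 promoter is shown as that of a sensor gene that was lower. Its window held no such pair, and neither did those of Mavs, Tbk1, Irf3 and Trex1. The printed upstream stretches of Ddx58 and Ifih1 hold no pair with the searched gap either, since their matches lie after the start. Other gaps were not searched, and the printed Ddx58 stretch does hold GAAA repeats that lie closer together (gaaacgaaa). A link between the motif and the direction of change was not tested. The motif occurred in 3.44% of the 32851 RefSeq promoters of this length. Counted by gene, in any of its promoters, it occurred in 3.6% of the 10132 tested genes that had a promoter. The share was 4.93% of the 2292 such genes called higher in senescent FAPs and 3.31% of the 2475 called lower. The motif TTCNNNGAA, to which STAT dimers bind, was found in the window of none of the 7 matched genes and in 8.3% of all promoters. These matches are letters in a fixed window and do not show that a factor was bound.

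In senescent compared to control FAPs, the genes of all 3 RNA helicases and Zbp1 were higher, cGAS and STING were lower, and the shared signaling core of Mavs, Tbk1 and Irf3 and the nuclease Trex1 passed the test in neither direction. All 10 genes passed the filter on low values in each of the 6 libraries. At an adjusted p under 0.05 (limma on log2(CPM + 0.5), Benjamini-Hochberg over 14776 genes), 4 were called higher and 2 lower, where 21.8% of all genes tested were called higher and 24.3% lower, 3218 and 3592 genes. The latter counts were 4992 and 1929 with division by library totals alone, and 2130 and 2416 without senescent replicate 2. At the study's threshold, an unadjusted p under 0.01 with a log2 difference beyond 1, 4 of the genes were called higher and 0 lower, against 6.93% and 3.9% of all genes. The study used edgeR and the threshold was applied here to the limma fit, so these counts and shares are not the study's own. The 3 senescent libraries did not overlap the 3 control libraries for 7 of the genes, 5 higher and 2 lower, against 26.5% and 30.9% of all genes. The median log2 difference was 0.18 over the 10 genes and -0.03 over all genes tested. In bulk RNA a lower level can come from fewer cells of a type or from less RNA per cell, which cannot be told apart.

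**Figure D1:**
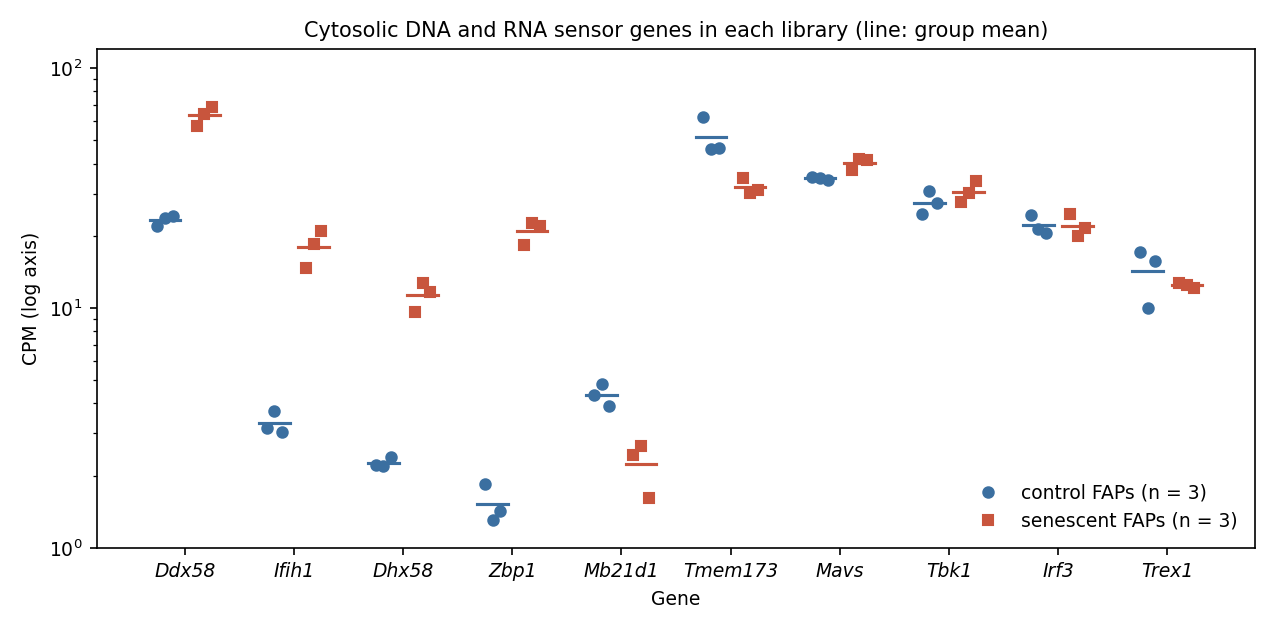
Expression of the 10 sensor and signaling genes in CPM on a log axis, with a point for each library (circles for control, squares for senescent FAPs) and a line at each group mean. The senescent libraries of Ddx58, Ifih1, Dhx58 and Zbp1 all sit above the control libraries, those of Mb21d1 and Tmem173 below, and those of Tbk1, Irf3 and Trex1 overlap.

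The libraries held 41412179 to 59912520 reads on genes. The cell cycle inhibitor Cdkn1a was at 290 ± 40.5 CPM in control and 1038 ± 21.4 CPM in senescent libraries, and the proliferation marker Mki67 at 158 ± 78.6 and 12.7 ± 5.49 CPM (SD, n = 3), both past the test in the direction of the senescent label, while Cdkn2a did not pass it (85.5 ± 38.2 and 90.0 ± 23.2 CPM, limma adjusted p = 0.765). All 7 listed FAP markers were detected in both groups (3 higher, 1 lower), and their summed level was 11456 to 23299 CPM in control and 4455 to 6743 CPM in senescent libraries. Col1a1 fell from 15545 to 3116 CPM in the means, Cd34 rose from 22.5 ± 3.97 to 70.1 ± 17.4 CPM and Dcn from 62.3 ± 33.6 to 197 ± 21.2 CPM, while Pdgfra, at 192 ± 58.4 and 218 ± 35.7 CPM, did not pass the test. Of the listed endothelial markers 3 were tested, 1 higher and 1 lower, with sums of 18.0 to 38.4 CPM in control and 22.2 to 29.2 CPM in senescent libraries over the 4 measured, and of the myogenic markers 2 were tested, 1 of them higher, with sums of 14.3 to 19.3 and 23.4 to 30.2 CPM. Thy1 stood apart in replicate 1 of both groups, with 489 and 615 CPM there and 41.3 to 73.6 CPM in the other 4 libraries.

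RNA sensing by RIG-I-like helicases starts with Ddx58 (chromosome 4, 40203773 to 40239828, build GRCm38, with 18 exons in its longest annotated transcript), whose product RIG-I recognises short double-stranded RNA with phosphate at its 5′ end. It stood at 21.9, 23.8 and 24.3 CPM in control replicates 1, 2 and 3, and at 57.2, 64.7 and 69.1 CPM in senescent replicates 1, 2 and 3. CPM are read counts relative to the total of the library, here after scaling between libraries. All 3 senescent libraries lay above all control libraries, and the control libraries spread by 1.24 CPM (SD, n = 3) around a mean of 23.4, the senescent ones by 5.99 around 63.7. The rise was 2.73-fold in the means, with a log2 difference of 1.42 ± 0.09 (SE) and a limma adjusted p of 1.31e-04.

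Ifih1 (chromosome 2, 62595798 to 62646255, 16 exons) encodes MDA5, which assembles along long double-stranded RNA. Its level was 3.17, 3.71 and 3.03 CPM in the control libraries and 14.7, 18.5 and 20.9 CPM in the senescent libraries. The groups were far apart, with means of 3.30 ± 0.357 and 18.1 ± 3.12 CPM (SD, n = 3), a 5.46-fold rise. The log2 difference was 2.28 ± 0.16 (SE; limma adjusted p = 1.47e-04).

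Dhx58 (chromosome 11, 100694884 to 100704271, 13 exons) encodes LGP2, a helicase that binds the same RNA but lacks the signaling domains of the other two. Its level was 2.21, 2.19 and 2.39 CPM in control FAPs and 9.59, 12.7 and 11.7 CPM in senescent FAPs. Here too every senescent library was higher than every control library. The means were 2.26 ± 0.110 and 11.3 ± 1.58 CPM (SD, n = 3), 5.01-fold apart, with a log2 difference of 2.09 ± 0.15 (SE; limma adjusted p = 1.43e-04). Dhx58 overlaps the antisense gene Dhx58os, which had 0.625 and 1.88 CPM in control replicates 1 and 3 and 3.15 to 3.65 CPM in senescent libraries, with control replicate 2 just under the lowest of these. The library kit marks strand, but the sources used here do not say that the counting used it, so reads of the overlap may be shared.

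The 3 helicases were then compared with each other within each library. The log2 ratio of Ifih1 to Ddx58 was higher by 1.00 and that of Dhx58 to Ddx58 by 0.87 in senescent compared to control FAPs, and in both ratios the 2 groups of libraries did not overlap. The ratio of Ifih1 to Dhx58 differed by 0.12 and its groups overlapped. A two-sided exact permutation test of 3 against 3 libraries cannot go below p = 0.1, the value it gave for each of the former 2 ratios (0.15 after Benjamini-Hochberg adjustment over the 3 ratios), and it gave p = 0.4 for the last.

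Per kilobase of transcript, Ddx58 was the most abundant of the 3 helicase mRNAs in every library. Summed over the 3 genes, the level was 7.16, 7.73 and 7.81 CPM per kb in control and 21.4, 25.3 and 26.5 CPM per kb in senescent libraries. The share of Ddx58 in that sum was 79.1%, 79.5% and 80.2% in control and 68.9%, 65.9% and 67.3% in senescent libraries. Ifih1 accounted for 7.10% to 8.76% of the sum in control and 12.5% to 14.4% in senescent FAPs, and Dhx58 for 11.7% to 12.8% and 18.3% to 20.7%. None of these ranges overlapped between the groups. The shares add up to the whole and restate the ratios above, so they are not separate results. The shares depend on the lengths, but over the union of exons too Ddx58 led, with 3.31 CPM per kb against 0.405 for Ifih1 and 0.691 for Dhx58 in control FAPs and 9.03 against 2.21 and 3.46 in senescent FAPs.

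**Figure D2:**
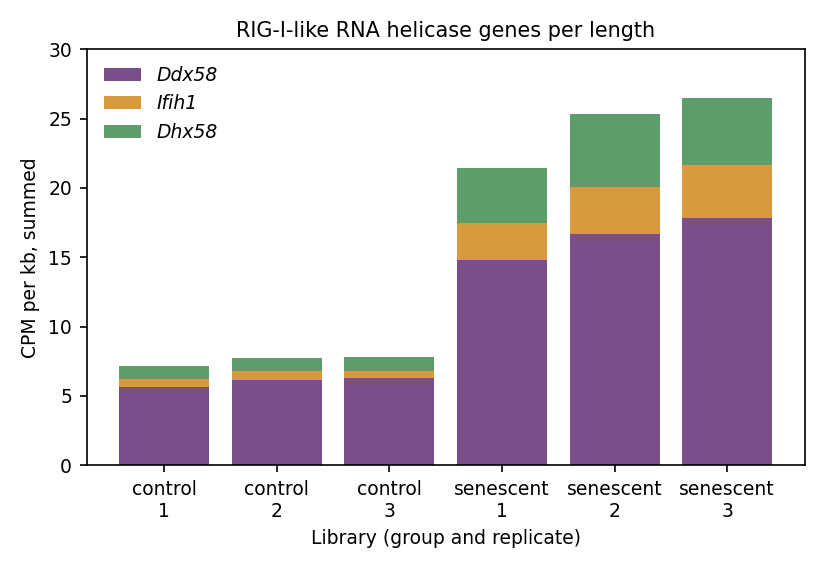
Summed level of the RIG-I-like helicase genes per kb of the longest transcript in each library, with stacked bars for Ddx58, Ifih1 and Dhx58. The bars stand at 7.16 to 7.81 CPM per kb in control and 21.4 to 26.5 CPM per kb in senescent libraries, and the Ddx58 part shrinks from 79.1% to 80.2% of the bar to 65.9% to 68.9%.

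Zbp1 (chromosome 2, 173206612 to 173218923, 7 exons), first described as a DNA sensor and now known as a sensor of Z-form nucleic acid, had the largest difference of the 10 genes. Its level was 1.85, 1.31 and 1.42 CPM in control libraries, or 69 to 83 reads, and 18.2, 22.6 and 21.9 CPM in senescent libraries, or 919 to 1352 reads. The 2 groups were 13.7-fold apart in their means, 1.53 ± 0.286 and 20.9 ± 2.34 CPM (SD, n = 3). The log2 difference of 3.40 ± 0.16 (SE; limma adjusted p = 4.61e-05) ranked 19 from the top among the 14776 genes tested, ahead of Ifih1 at rank 120, Dhx58 at rank 154 and Ddx58 at rank 479.

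ZBP1 recruits the kinase RIPK3, which activates the membrane-lysing protein MLKL, and with them come caspase-8 and its regulator cFLIP. Of these 4 partner genes 2 were called higher and 0 lower, against 21.8% and 24.3% of all genes tested. Their median log2 difference was 0.24. Mlkl was at 17.5 to 20.8 CPM in control and 26.6 to 29.3 CPM in senescent libraries (log2 difference 0.54, limma adjusted p = 0.00371), and the groups were apart. Cflar, encoding cFLIP, had 79.9, 152 and 103 CPM in control and 147, 193 and 204 CPM in senescent libraries, which overlapped, with a log2 difference of 0.73 and a limma adjusted p of 0.0327. Ripk3 (log2 difference -0.21, limma adjusted p = 0.160) and Casp8 (-0.07, limma adjusted p = 0.549) did not pass the test.

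Leukocytes also transcribe these sensor genes, and most of their markers tested were higher in the senescent libraries as well. Of 10 listed leukocyte markers, 6 were analysed here (Ptprc, Adgre1, Fcgr1 and Cd52 were not), 4 were called higher (Lyz2, Cd68, Itgam and Cd53) and 0 lower, and their summed level was 13.3 to 16.0 CPM in control and 29.8 to 36.3 CPM in senescent libraries. Cd53 was at 0.960, 3.92 and 1.08 CPM in control and 8.36, 12.0 and 13.7 CPM in senescent libraries. Itgam was at 0.0670, 0 and 0 CPM in control and 0.516, 0.837 and 0.540 CPM in senescent libraries, so it passed the filter on low values through the senescent libraries alone and could be called in no other direction. Leaving it out, 3 of 5 markers were called higher, against 21.8% of all genes tested. Csf1r, at 6.24 to 7.36 and 7.16 to 8.10 CPM, did not pass the test. The FAPs had been sorted as CD45- before culture, and the part of such cells in the rise of the helicases and Zbp1 was not tested.

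For cGAS and STING, of the DNA branch, the direction was the opposite, while Trex1 and the other DNA sensors are given below. Mb21d1 (chromosome 9, 78430526 to 78443237, 5 exons), the gene of the DNA sensor cGAS, stood at 4.33, 4.83 and 3.91 CPM in control and 2.44, 2.66 and 1.62 CPM in senescent libraries, from 72 to 254 reads. Every senescent library lay below every control library. The means were 4.36 ± 0.459 and 2.24 ± 0.549 CPM (SD, n = 3), 1.94-fold lower in senescent FAPs, with a log2 difference of -0.84 ± 0.19 (SE) and a limma adjusted p of 0.00921. Among same-numbered libraries the difference was -0.71, -0.75 and -1.06. With a 95% confidence interval from -1.28 to -0.40, its size is known less well than those of the helicases. Mb21d1 overlaps the antisense gene Gm8093, not analysed here.

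Tmem173, the gene of STING, the receptor of the dinucleotide that cGAS makes, had 62.7, 46.0 and 46.7 CPM in control and 34.7, 30.2 and 31.1 CPM in senescent libraries. The lowest control library was above the highest senescent library, and control replicate 1 was above the other two controls. The means of 51.8 ± 9.44 and 32.0 ± 2.40 CPM (SD, n = 3) were 1.62-fold apart, with a log2 difference of -0.67 ± 0.13 (SE; limma adjusted p = 0.00517). cGAS and STING lay outside the study's threshold because neither log2 difference went beyond 1, at ranks 863 and 1424 from the bottom of all genes tested. The ratio of STING to cGAS per kb was 25.5, 16.8 and 21.0 in control and 25.1, 20.0 and 33.8 in senescent libraries, ranges that overlap. The helicase sum per kb over cGAS was 6.48 to 8.08 in control and 35.5 to 66.2 in senescent libraries. This ratio sets genes called higher over a gene called lower, so its rise restates those calls, and its size depends on the lengths used.

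Mavs, Tbk1 and Irf3 carry the signal from these sensors to the nucleus. Mavs (chromosome 2, 131234063 to 131248025), the adaptor of the helicases, had 35.3, 35.0 and 34.2 CPM in control and 37.7, 41.7 and 41.4 CPM in senescent libraries. The groups were apart by a small step, 34.8 ± 0.531 against 40.2 ± 2.22 CPM (SD, n = 3), and the log2 difference of 0.20 ± 0.08 (SE; 95% confidence interval 0.03 to 0.38) missed the threshold at a limma adjusted p of 0.0602. Without senescent replicate 1 it was 0.25 and passed it, at a limma adjusted p of 0.0465, and it passed it with edgeR, DESeq2 and other scalings too. Per kb of the longest transcript, the ratio of Ddx58 to Mavs went from 0.491, 0.538 and 0.560 in control to 1.20, 1.22 and 1.32 in senescent libraries. Over the union of exons Ddx58 stayed below Mavs, at 3.31 against 10.4 CPM per kb in control and 9.03 against 12.0 in senescent FAPs.

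Tbk1 (chromosome 10, 121546455 to 121586787), the kinase on which both branches meet, had 24.6, 30.7 and 27.3 CPM in control and 27.7, 30.2 and 33.9 CPM in senescent libraries. Irf3 (chromosome 7, 44997648 to 45002848), its substrate, had 24.4, 21.4 and 20.6 CPM in control and 24.6, 19.9 and 21.6 CPM in senescent libraries. Both genes overlapped between the groups. The log2 difference was 0.15 for Tbk1 (95% confidence interval -0.12 to 0.42, limma adjusted p = 0.314) and -0.01 for Irf3 (-0.27 to 0.26, limma adjusted p = 0.964), so changes of the sizes within those intervals could not be told from none. The sign for Irf3 turned with scaling and tool, and Tbk1 passed the threshold with library totals alone (0.36, limma adjusted p = 0.0400). Irf3 overlaps Bcl2l12 on the other strand, which had 5.76 to 7.86 CPM in control and 3.87 to 5.76 CPM in senescent libraries.

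Trex1 (chromosome 9, 109057933 to 109059734), the exonuclease that removes cytosolic DNA, had 17.1, 9.96 and 15.7 CPM in control and 12.7, 12.5 and 12.2 CPM in senescent libraries. The senescent libraries lay close together and inside the spread of the controls, where replicate 2 was low. The log2 difference was -0.15 (95% confidence interval -0.60 to 0.29, limma adjusted p = 0.542). Without control replicate 2 it was -0.38, and the gene was then called lower at a limma adjusted p of 0.0192. Trex1 lies within the span of Atrip on the same strand, so its reads may be shared with that gene, which had 35.5, 27.3 and 35.1 CPM in control and 26.0, 27.9 and 25.7 CPM in senescent libraries. The ratio of Trex1 to Atrip in CPM was 0.364 to 0.482 in control and 0.446 to 0.490 in senescent libraries.

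**Figure D3:**
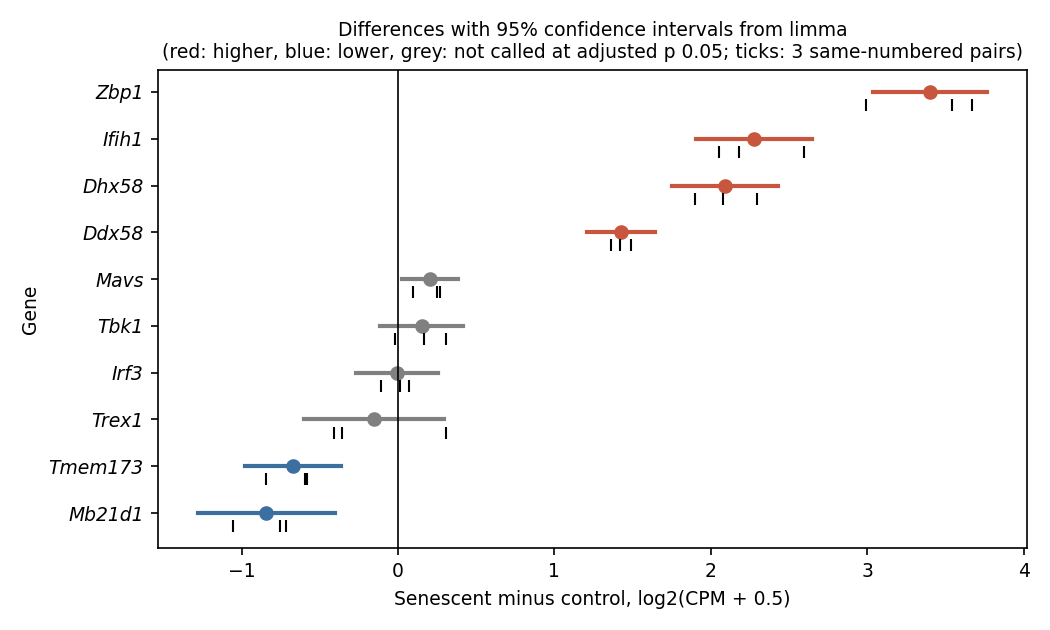
Log2 difference of each gene, senescent minus control FAPs on log2(CPM + 0.5), with its 95% confidence interval from limma (points and bars) and the 3 differences between same-numbered libraries (ticks). The intervals of Zbp1, Ifih1, Dhx58 and Ddx58 lie above 0 and those of Tmem173 and Mb21d1 below, while those of Tbk1, Irf3 and Trex1 span 0. The interval of Mavs (0.03 to 0.38) lies above 0, although the gene was not called after adjustment.

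Levels per kb of the longest annotated transcript place the genes on a common scale. In control FAPs the order ran from Tmem173 (22.5 ± 4.10 CPM per kb, SD, n = 3) through Trex1 (13.2 ± 3.49), Mavs (11.4 ± 0.174), Irf3 (10.9 ± 0.979) and Tbk1 (9.10 ± 1.00) to Ddx58 (6.03 ± 0.321). Mb21d1 (1.08 ± 0.113), Dhx58 (0.937 ± 0.0456), Ifih1 (0.604 ± 0.0652) and Zbp1 (0.459 ± 0.0861) followed far below. Trex1, Mavs, Irf3 and Tbk1 could not be ordered among neighbours, since their ranges overlapped, nor could Mb21d1 and Dhx58, or Ifih1 and Zbp1. Control FAPs thus held the mRNA of the adaptors, the kinase, the transcription factor and the nuclease at higher levels than that of each of the 5 sensors.

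In senescent FAPs the leading level was that of Ddx58 (16.4 ± 1.55 CPM per kb), with ranges that overlapped Tmem173 (13.9 ± 1.04), which in turn overlapped Mavs (13.2 ± 0.727). Trex1 (11.5 ± 0.256), Irf3 (10.9 ± 1.19) and Tbk1 (10.1 ± 1.03) came next. Irf3 overlapped both Trex1 and Tbk1, while the lowest library of Trex1 lay just above the highest of Tbk1. Zbp1 (6.29 ± 0.705), Dhx58 (4.69 ± 0.655), Ifih1 (3.30 ± 0.571) and Mb21d1 (0.553 ± 0.135) followed, each apart from its neighbour. Among the genes with a known length, Zbp1 moved from percentile 11.5 to percentile 51.2 and Ddx58 from 49.5 to 75.2, while Mb21d1 moved from 19.7 to 10.7. The place of Ddx58 depends on the length used. Over the union of exons it stood at 9.03 CPM per kb in senescent FAPs, below Mavs at 12.0, Tmem173 at 11.7 and Trex1 at 10.9.

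**Figure D4:**
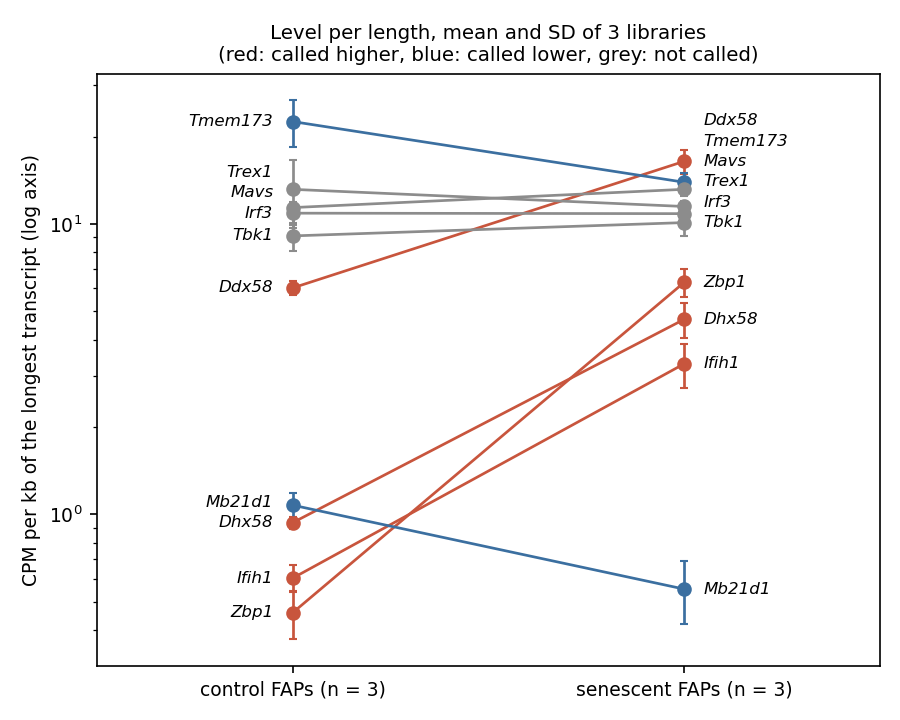
Level of each gene in CPM per kb of its longest transcript on a log axis, as the mean (points) and SD (bars) of 3 control and 3 senescent libraries, joined by a line for each gene. Zbp1, Ifih1 and Dhx58 rise from under 1 CPM per kb to between 3.30 and 6.29, while Mb21d1 falls from 1.08 to 0.553; gene names at the right are spread apart where points crowd.

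Around these genes, 87 further genes of the same pathways were measured and 85 tested. Of these 27 were called higher, 21 lower and 37 neither, or 31.8% higher and 24.7% lower against 21.8% and 24.3% of all genes tested, and the median log2 difference was -0.03, the same as over all genes. At the study's threshold 8 were called higher and 1 lower, where 6.93% and 3.9% of all genes were. The counts of each list below, and of the marker lists above, are read against the same shares of all genes. The count of higher genes fell to 17 without senescent replicate 2. With division by library totals in place of the deposited scaling it was 35, with 12 lower. The leukocyte markers given above moved with the genes of these lists that rose, and their part was not tested.

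The list of other DNA sensors and their cofactors had 5 genes higher, 6 lower and 9 not called of 20 tested (median log2 difference -0.11). Ifi203, of the p200 family of interferon-inducible DNA-binding proteins, had 1.21, 0.856 and 1.24 CPM in control and 9.79, 9.03 and 8.35 CPM in senescent libraries, a log2 difference of 2.58 (limma adjusted p = 1.10e-04). Its relatives Ifi204, Ifi205 and Mnda, also called higher, are similar enough that counting could have split reads among them, which makes the value of each uncertain. Hnrnpa2b1, an RNA-binding protein that can also bind viral DNA in the nucleus, fell from 576 ± 58.4 to 325 ± 16.1 CPM (SD, n = 3; log2 difference -0.82, limma adjusted p = 6.50e-04). G3bp1, a stress granule protein that aids cGAS, fell from 232 ± 14.5 to 146 ± 9.22 CPM, and Nono, a nuclear partner of cGAS, from 277 ± 15.1 to 198 ± 5.45 CPM. The groups were apart for Ifi203, Hnrnpa2b1, G3bp1 and Nono, which were named for having the smallest p of the list. Of the 20 genes tested, 4 were apart and higher and 7 apart and lower, against 26.5% and 30.9% of all genes. Ifi204 overlapped between the groups.

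The list of enzymes that clear or edit nucleic acids, and so keep it from the sensors, also held proteins that are not such enzymes, among them Banf1 and Lsm11. It had 1 gene higher, 5 lower and 5 not called of 11 tested (median log2 difference -0.03). The gene that rose was Adar, the enzyme that edits adenosine in double-stranded RNA and so hides it from MDA5, at 28.1, 29.0 and 27.2 CPM in control and 56.7, 58.9 and 54.6 CPM in senescent libraries (log2 difference 1.00 ± 0.07, SE; limma adjusted p = 1.68e-04). Banf1, a chromatin protein that competes with cGAS for DNA, fell from 98.1 ± 10.1 to 60.9 ± 3.92 CPM (log2 difference -0.68, limma adjusted p = 0.00132). Lsm11, which acts in histone pre-mRNA processing, fell from 18.3 ± 2.72 to 10.9 ± 0.578 CPM, and Samhd1, which breaks down deoxynucleotides, from 77.8 ± 8.42 to 53.3 ± 3.51 CPM. The proliferation marker Mki67 fell in the same libraries, from between 101 and 247 CPM in control to between 9.27 and 19.0 CPM in senescent FAPs, and the part of the stop in proliferation was not tested.

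Partners and regulators of STING and the RNA helicases had 10 genes higher, 7 lower and 7 not called of 24 tested (median log2 difference 0.22). Trim25, a ubiquitin ligase that acts on RIG-I, was at 22.4, 17.3 and 24.6 CPM in control and 43.9, 48.2 and 42.7 CPM in senescent libraries, a log2 difference of 1.06 (limma adjusted p = 8.90e-04). Trim21, an antibody receptor and ubiquitin ligase of the cytosol, rose from 2.63 ± 0.424 to 9.62 ± 0.869 CPM (log2 difference 1.70, limma adjusted p = 3.07e-04). Nlrc5, an activator of MHC class I genes that also restrains antiviral signaling, rose from 0.541 ± 0.182, near the filter on low values, to 3.92 ± 0.195 CPM (log2 difference 2.10, limma adjusted p = 2.43e-04). Pcbp2, an RNA-binding protein that promotes degradation of MAVS, fell from 365 ± 23.7 to 225 ± 7.27 CPM (log2 difference -0.70, limma adjusted p = 5.52e-04).

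Downstream kinases, adaptors and transcription factors had 5 genes higher, 1 lower and 11 not called of 17 tested (median log2 difference 0.01). Irf7, the interferon-inducible relative of Irf3, was at 2.16, 1.67 and 3.54 CPM in control and 21.2, 29.1 and 32.6 CPM in senescent libraries. Its log2 difference of 3.28 ± 0.25 (SE; limma adjusted p = 1.98e-04) stood beside that of -0.01 for Irf3. Ikbke, the relative of Tbk1, rose from 13.9 ± 1.54 to 24.3 ± 1.54 CPM (log2 difference 0.79, limma adjusted p = 0.00143), where Tbk1 did not pass the test. Ikbkg, the regulatory subunit of the IκB kinase, rose from 42.0 ± 2.78 to 78.3 ± 3.19 CPM, and Tbkbp1, a scaffold that binds TBK1, from 13.9 ± 1.19 to 22.2 ± 0.870 CPM. No difference between these differences was tested.

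The endosomal sensors, which read nucleic acid outside the cytosol, and the double-stranded RNA kinase PKR had 4 genes higher, 2 lower and 3 not called of 9 tested (median log2 difference 0.08). Tlr3, the endosomal receptor for double-stranded RNA, had 3.21, 3.73 and 2.48 CPM in control and 8.72, 10.8 and 11.7 CPM in senescent libraries (log2 difference 1.59, limma adjusted p = 5.94e-04). Eif2ak2, encoding PKR, rose from 30.9 ± 3.54 to 74.3 ± 9.65 CPM (log2 difference 1.25, limma adjusted p = 3.77e-04). Hsp90b1, a chaperone of the endoplasmic reticulum that folds Toll-like receptors among many other clients, fell from 2290 ± 162 to 1157 ± 54.2 CPM, and its cofactor Cnpy3 from 50.2 ± 4.73 to 37.5 ± 0.741 CPM. The 19 listed genes of type I and type III interferons were not analysed here.

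**Figure D5:**
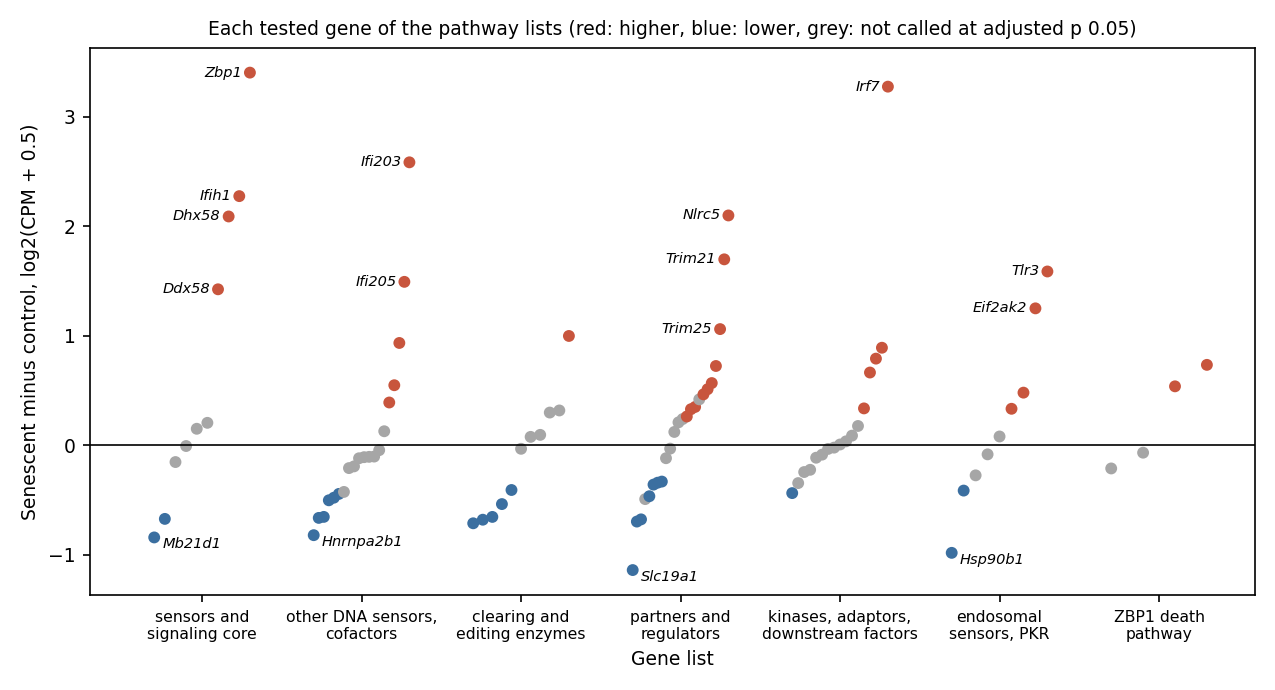
Log2 difference, senescent minus control FAPs on log2(CPM + 0.5), of each tested gene in 7 lists, with a point for each gene in red where called higher, blue where called lower and grey where not called at an adjusted p of 0.05. Zbp1 (3.40) and Irf7 (3.28) stand highest, and most genes of each list lie between -1 and 1.

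Over the 6 libraries, the genes whose log2 levels were most like those of Ddx58 were Tshr, Arhgef3 and Itm2b (Pearson r 0.9993, 0.9991 and 0.9989), and 192 genes in all passed r = 0.99. The nearest to Mb21d1 were Srd5a1, Lsm5 and Cstf1 (r 0.9948, 0.9928 and 0.9926), with 4 genes past 0.99. Those nearest to Tmem173 were Dohh, 2310039H08Rik and Dph1 (r 0.9992, 0.9983 and 0.9975), with 24 past 0.99. Since the 6 points fall into 2 groups, these values describe a shared difference between control and senescent FAPs and the spread within it, and no test was made of them.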

How the data were processed

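RNA of 3 control and 3 senescent FAP samples was sequenced from libraries of a stranded mRNA kit, and each library was given its group and replicate number from the labels. The authors deposited a signal per gene and library, CPM of the effective library size from edgeR 3.10 in R 3.6.0, on build mm10 per the submitters' processing notes. The aligner, the counting tool, the annotation and the use of strand are not given in the sources used here. The design assumed plain CPM, and the same test was kept. Dividing the deposited signal by what 1 read is worth in a library (0.0167 to 0.0225 CPM) gave whole reads, within 0.001, at 100% of entries. The table's 1 line without a gene name among 16895, with 0.0041% to 0.0070% of reads, was dropped.

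The 14776 genes that reached 0.5 CPM in 3 or more libraries were tested with limma 3.58.1 in R 4.3.3 on log2(CPM + 0.5), with a variance trend, two-sided, and Benjamini-Hochberg adjustment over all of them. Differences on this scale understate the change of low genes. The script was tested on simulated data. Precision is limited by 3 libraries per group and, for genes of few reads, by counting. Levels per kb used the longest GENCODE transcript of build GRCm38, known for 95.1% of the genes tested, and promoters came from RefSeq (GRCm38.p6). No column was left unmapped.

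The 10 genes and the pathway lists were chosen with earlier results of these data known. Named beside them were the 4 genes of smallest p in each list, the 3 genes most like Ddx58, Mb21d1 and Tmem173, the cell type markers and the senescence check. Ifi204, Ifi205 and Mnda were named after their values were seen. The labels do not say that same-numbered control and senescent libraries are paired. Such libraries deviated together from their group means (correlations 0.537, 0.308 and 0.207 over genes for numbers 1, 2 and 3). Correlations of differently numbered libraries ran from -0.357 to 0.153. The replicate numbers were treated as a possible pairing, and a fit with the replicate number as a block was made beside the main fit. The fit was repeated with pseudocounts of 0.1 and 1, without the filter and with it at 2 CPM, with median-of-ratios scaling, division by library totals, leaving out each library, lengths over the union of exons, and edgeR 4.0.16 (quasi-likelihood) and DESeq2 1.42.0 on the recovered reads, which called 3261 genes higher and 3307 lower (edgeR) and 3560 and 3440 (DESeq2).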

Additional observations from a re-analysis of the deposited data

How the results depend on the processing

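The 6 genes called (Zbp1, Ifih1, Dhx58, Ddx58, Mb21d1 and Tmem173) kept their direction and their call under all 15 alternatives, with a limma, edgeR or DESeq2 adjusted p of at most 0.0270. The replicate block changed no call of the 10 genes, 4 higher and 2 lower with and without the pairing, and gave 28 higher and 24 lower of the other pathway genes. Mavs (0.20 as reported) passed the threshold at 0.22 with median-of-ratios scaling (limma adjusted p = 0.0481), 0.41 with library totals (0.00439), 0.23 with edgeR (0.0388) and 0.25 with DESeq2 (0.0240), and ranged from 0.18 to 0.25 when 1 library was left out. Division by library totals moved the median of all genes by 0.20, made 6 of the 10 genes higher, with Tbk1 at 0.36 (limma adjusted p = 0.0400), turned Irf3 to 0.20 and Trex1 to 0.0516, neither past the threshold, and left 12 of the other pathway genes lower. Less that shift, the differences were 0.22 for Mavs, 0.16 for Tbk1, 0.0024 for Irf3 and -0.15 for Trex1. Irf3 also turned to 0.0107 with median-of-ratios scaling, 0.0206 with edgeR and 0.0332 with DESeq2, and ranged from -0.0884 to 0.0632 with 1 library left out, never past the threshold. Trex1 ranged from -0.38 to -0.0093 with 1 library left out and passed the threshold only without control replicate 2. The other pathway genes called ranged from 17 to 27 higher and 14 to 24 lower with 1 library left out. Lengths over the union of exons moved the levels per kb, in control and senescent FAPs, to 3.31 and 9.03 for Ddx58, 0.405 and 2.21 for Ifih1, 0.691 and 3.46 for Dhx58, 10.4 and 12.0 for Mavs, 7.04 and 7.82 for Tbk1 and 6.43 and 6.41 for Irf3, and in senescent FAPs to 11.7 for Tmem173 and 10.9 for Trex1, since that length counts exons of every transcript. Apart from these constructions the cause of each move was not tested. Zbp1 and Mb21d1, with 69 and 72 reads in their lowest libraries, had the fewest reads of the 10 genes.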
